A study of Sus scrofa with 24 samples.

Results

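Fat cells lie between and within the fibre bundles of pig loin, and their messenger RNA is measured together with that of the muscle fibres. The genes described here are 8 that mark fat cells or serve the fat droplet inside them, namely ADIPOQ, FABP4, PPARG, CIDEA, LEP, LIPE, RBP7 and ADRB3. They were chosen by name, and every probe set that the array annotation gives to 1 of these symbols was taken, which came to 12 of the 24123 probe sets on the array (8 of 6765 genes with a symbol there). Of the 12, 8 passed the signal filter and were tested, 1 for each gene. For LEP and ADRB3, 1 further probe set each lay below the filter, and 2 more LEP probe sets carry a control-type name and are given as values alone.

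RNA came from longissimus dorsi, the long muscle of the loin, of 24 pigs from a Landrace × Large White × Duroc cross. The feed held 3.0% of soybean oil, olive oil, coconut oil or beef tallow, starting at about 71 kg body weight and about 130 days of age. Each fat had 3 barrows, which are castrated males, and 3 gilts, which are young females, giving 6 pigs per fat and 12 per sex. There was no diet without added fat among these samples, no sample from before feeding and no intact male. Housing was in 24 pens of 3, and the labels do not tie a sampled pig to its pen, so that every pig counts as independent and the errors below leave pens out. The sample titles number the gilts 1 to 12 and the barrows 13 to 24, and pigs are named by these numbers.

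A fat cell stores triglyceride in a single large droplet. PPARG is the nuclear receptor that switches on the fat cell programme, and many genes of fatty acid transport and storage are its targets. The cell secretes the hormones adiponectin (ADIPOQ) and leptin (LEP), carries fatty acids on FABP4 and retinol on RBP7, coats and fuses droplets with proteins such as CIDEA, and breaks the store down with hormone-sensitive lipase (LIPE) when adrenergic receptors such as ADRB3 are stimulated. In pigs, fat within the loin is the marbling of the meat.

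Across the 24 arrays the median signal lay between 139 and 174, and Pearson correlations between pairs of arrays lay between 0.863 and 0.967. The arrays least like the rest were those of pigs 12, 11 and 16 (mean r 0.907, 0.925 and 0.927). The tissue label was checked against 13 genes of muscle fibres, whose summed signal lay between 353891 and 595928 in every pig. The summed signal of the 8 fat cell genes lay between 6706 and 44037. In bulk tissue fewer fat cells and less RNA per fat cell cannot be told apart.

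The fat cell regulator PPARG had signals between 268 and 734 (median 398) with soybean oil, between 175 and 1095 (median 203) with olive oil, between 128 and 204 (median 175) with coconut oil and between 156 and 892 (median 456) with beef tallow. On the log2 scale its mean was 8.75 ± 0.62 with soybean oil, 8.25 ± 1.08 with olive oil, 7.41 ± 0.23 with coconut oil and 8.81 ± 0.92 with beef tallow (SD, n = 6 each). The coconut-fed pigs lay close together and low. Olive oil held pigs inside the coconut range (pig 7 at 175, and barrows at 188 and 189) and also the highest of all 24 (pig 12, 1095). Every soybean-fed pig lay above every coconut-fed pig. Among beef tallow pigs, only pig 2, with 156, fell inside the coconut range.

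ADIPOQ encodes adiponectin, a hormone of fat cells that raises insulin sensitivity in mice. Its signals lay between 1602 and 6967 (median 2497) with soybean oil, between 825 and 11439 (median 1312) with olive oil, between 324 and 1221 (median 1106) with coconut oil and between 679 and 8944 (median 3185) with beef tallow. Its log2 mean was 11.51 ± 0.89 with soybean oil, 11.04 ± 1.57 with olive oil, 9.76 ± 0.74 with coconut oil and 11.66 ± 1.35 with beef tallow (SD, n = 6 each). The 3 coconut-fed gilts were within a narrow band (1098, 1115 and 1150.1), and the 3 coconut-fed barrows spread more widely (324, 746 and 1221). Pig 20 had the lowest ADIPOQ of the series and pig 12 the highest.

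FABP4, which carries fatty acids through the fat cell and is also made by capillary endothelium, read between 9775 and 18670.3 (median 11602) with soybean oil, between 4728 and 23254 (median 8138) with olive oil, between 5114 and 8833 (median 5730.4) with coconut oil and between 6625 and 24254 (median 13114) with beef tallow. The log2 means were 13.58 ± 0.33 with soybean oil, 13.31 ± 0.89 with olive oil, 12.61 ± 0.33 with coconut oil and 13.70 ± 0.62 with beef tallow (SD, n = 6 each). All soybean-fed pigs again lay above all coconut-fed pigs, and again pig 2 was the beef tallow pig that reached into the coconut range.

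RBP7, a retinol carrier found in white fat and, in mice, in the vessels of fat, was a low signal: 8 pigs lay below the filter signal of 86.3, 6 of them barrows. Signals were between 83.0 and 433 (median 157) with soybean oil, between 4.29 and 605 (median 57.0) with olive oil, between 27.6 and 158 (median 90.0) with coconut oil and between 82.0 and 270.4 (median 148) with beef tallow. Its log2 mean was 7.36 ± 0.97 with soybean oil, 6.26 ± 2.48 with olive oil, 6.36 ± 0.81 with coconut oil and 7.28 ± 0.61 with beef tallow (SD, n = 6 each). Olive oil therefore held both the lowest value (pig 17) and the highest (pig 4).

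CIDEA, a droplet protein that moves lipid from smaller to larger droplets, read between 205 and 448 (median 324) with soybean oil, between 84.1 and 831 (median 172) with olive oil, between 72.0 and 211 (median 165) with coconut oil and between 153 and 577 (median 354) with beef tallow. The log2 means were 8.28 ± 0.42 with soybean oil, 7.73 ± 1.34 with olive oil, 7.16 ± 0.60 with coconut oil and 8.31 ± 0.70 with beef tallow (SD, n = 6 each). The soybean range began just below the top of the coconut range. Pigs 15, 17 and 18, all barrows, lay below the filter signal.

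LIPE, the lipase that releases fatty acids from the droplet on adrenergic stimulation, read between 908 and 2624 (median 1471) with soybean oil, between 257 and 6655 (median 604) with olive oil, between 311 and 1205 (median 833) with coconut oil and between 452 and 3691 (median 1782) with beef tallow. Its log2 mean was 10.51 ± 0.60 with soybean oil, 9.90 ± 1.90 with olive oil, 9.49 ± 0.79 with coconut oil and 10.55 ± 1.14 with beef tallow (SD, n = 6 each). All 4 fats overlapped, and the olive oil pigs alone spanned the whole range of the series.

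**Figure D1:**
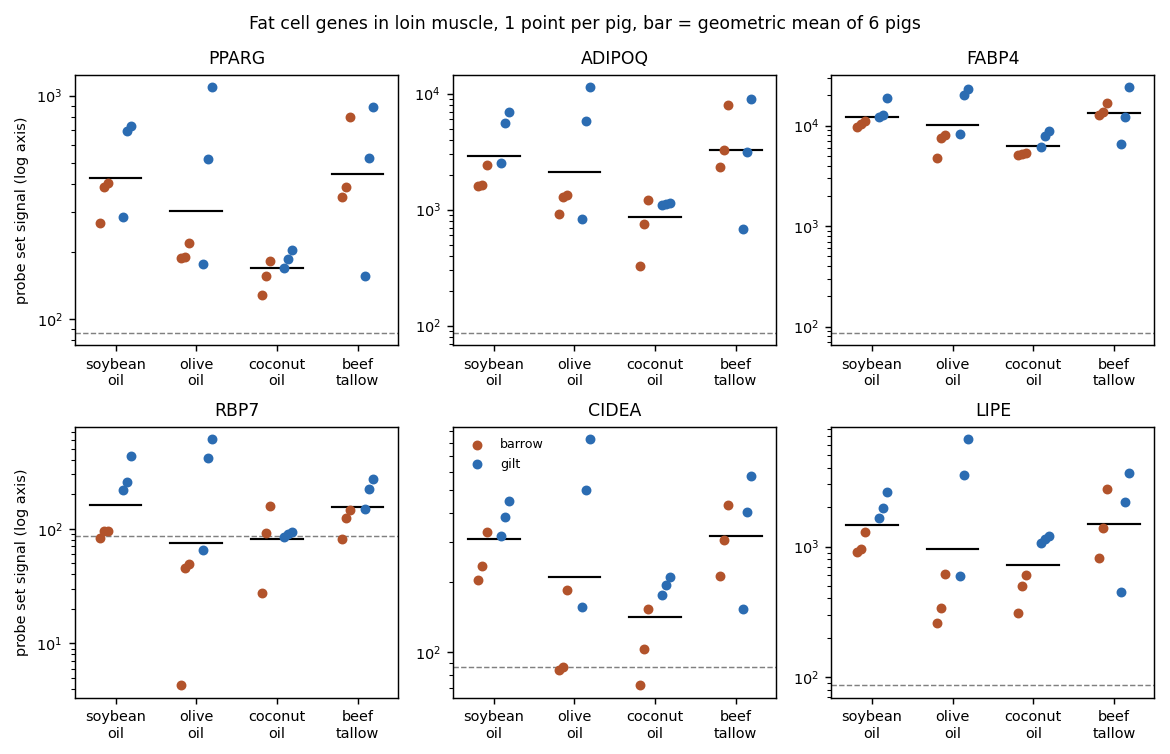
Signals of PPARG, ADIPOQ, FABP4, RBP7, CIDEA and LIPE (vertical log axes, array signal) in each pig by dietary fat, with barrows left of gilts, black bars at the geometric mean of 6 pigs and a dashed line at the filter signal of 86.3. Coconut oil pigs sit low and close together for PPARG (128 to 204), and olive oil pigs spread over nearly the full range.

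Leptin and the beta-3 adrenergic receptor were near the filter signal. The leading LEP probe set read between 128 and 195 (median 161) with soybean oil, between 70.7 and 194 (median 136) with olive oil, between 102 and 142 (median 115) with coconut oil and between 67.2 and 217 (median 136) with beef tallow. These ranges overlapped throughout, and 3 pigs, all gilts, lay below the filter signal. The second LEP probe set lay below the filter signal in 22 of 24 pigs, and the 2 probe sets with control-type names read 31.97 to 272 and 23.2 to 316. The 4 LEP probe sets did not track each other: Pearson r between pairs lay between 0.0040 and 0.22 over the 24 pigs.

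For ADRB3 the leading probe set read between 30.2 and 146 (median 128) with soybean oil, between 73.8 and 152 (median 103) with olive oil, between 147 and 220.0 (median 162) with coconut oil and between 103 and 248 (median 147) with beef tallow. Coconut oil, the lowest fat for PPARG, was the highest here (log2 mean 7.42 ± 0.22), soybean oil was the lowest (6.62 ± 0.86, SD, n = 6 each), and the soybean and coconut ranges did not overlap. The other ADRB3 probe set had a mean below the filter (signals from 4.82 to 105) and correlated with the first at r = 0.19 over the 24 pigs. On that probe set the soybean oil minus coconut oil difference was -0.44 ± 0.66, and its soybean range of 4.82 to 105 held the whole coconut range of 5.09 to 83.3.

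**Figure D2:**
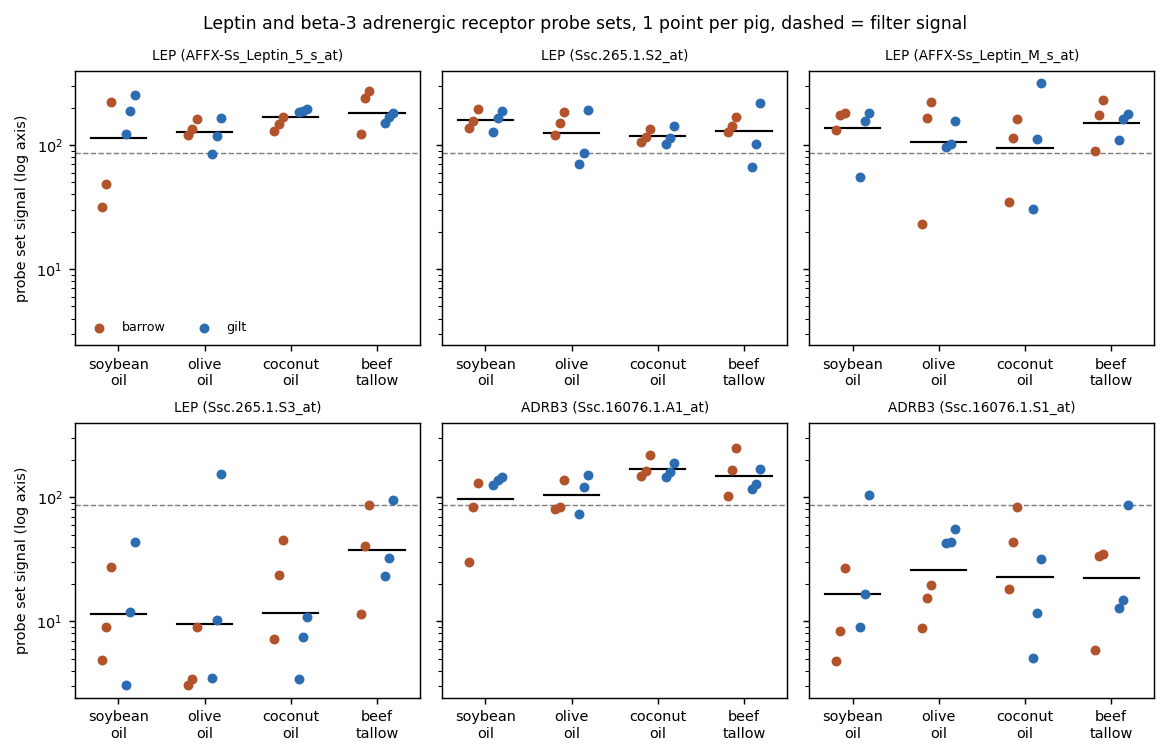
Signals (vertical log axes) of the 4 LEP and 2 ADRB3 probe sets in each pig by dietary fat, barrows left of gilts, with black bars at the geometric mean of 6 pigs and a dashed line at the filter signal of 86.3. All leading LEP values sit between 67.2 and 217 with every fat, and the first ADRB3 probe set has every coconut oil pig (147 to 220.0) above every soybean oil pig (30.2 to 146).

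Coconut oil is rich in saturated fatty acids of medium length, and beef tallow in long saturated and monounsaturated ones. FABP4 fell with coconut oil to 5114, 5384 and 5205 in barrows and 7857, 8833 and 6077 in gilts, against 12619, 16802 and 13609 in beef tallow barrows and 6625, 24254 and 12127 in beef tallow gilts. All 6 coconut-fed pigs lay below the beef tallow mean, although pig 2 kept the ranges overlapping. The fall was 1.09 ± 0.27 on the log2 scale (SE; 95% interval -1.64 to -0.54), or 2.13-fold lower (limma adjusted p = 0.0483), and it was the 1 call among the 8 tested members. Over all 14399 probe sets tested, 1.12% were called, 0.861% as lower with coconut oil.

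The other fat cell genes differed in the same direction without passing. ADIPOQ differed by -1.91 ± 0.58 (adjusted p = 0.0810), PPARG by -1.40 ± 0.40 (adjusted p = 0.0708) and CIDEA by -1.15 ± 0.35 (adjusted p = 0.0860), and all 6 coconut-fed pigs lay below the beef tallow mean for each. LIPE differed by -1.06 ± 0.50 (adjusted p = 0.240) and RBP7 by -0.92 ± 0.54 (adjusted p = 0.347). LEP (-0.13 ± 0.25) and ADRB3 (0.19 ± 0.28) showed no such difference, with 95% intervals of -0.64 to 0.39 and -0.39 to 0.78. The median over the 8 members was -1.08, beside -0.04 over all tested probe sets, and 7 of 8 were negative, beside 55.4% of all tested. The 8 do not count as separate observations. ADIPOQ, FABP4, PPARG, CIDEA, LIPE and RBP7 moved together from pig to pig (median r 0.88 over 15 pairs). The members were also chosen with earlier results of these data known. No member separated the 6 coconut-fed from the 6 beef tallow pigs without overlap, which 1.78% of all tested probe sets did. The FABP4 call was lost in 20 of 24 runs that left out 1 pig (it held without pig 2, 7, 12 or 24), with differences between -1.32 and -0.85 and adjusted p between 0.0253 and 0.137, and it was lost when pigs 11, 12 and 16 were left out (-1.13, adjusted p = 0.0510). ADIPOQ, PPARG and CIDEA also passed without pig 2, 7 or 12.

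Within barrows the difference was larger than over both sexes for FABP4, ADIPOQ, PPARG, CIDEA and LIPE, and smaller for RBP7 (-0.62 ± 0.76). FABP4 differed by -1.44 ± 0.38 there (adjusted p = 0.0481), the single call among the members where 2.07% of all probe sets were called. ADIPOQ read 324, 746 and 1221 in coconut oil barrows, against 2335, 3252 and 8017 in beef tallow barrows. LIPE read 311, 499 and 609 in coconut oil barrows, against 818, 1383 and 2767 in beef tallow barrows. Neither of these overlapped, nor did FABP4, PPARG or CIDEA, so 5 of 8 members were apart in barrows; 27.7% of all tested probe sets were also apart with 3 pigs a side. The differences were -2.56 ± 0.82 for ADIPOQ, -1.64 ± 0.56 for PPARG, -1.53 ± 0.50 for CIDEA and -1.68 ± 0.71 for LIPE, with limma adjusted p of 0.0891, 0.109, 0.0952 and 0.180. Leaving out 1 pig at a time ended the FABP4 call in barrows in 20 of 24 runs, and it held without pig 2, 7, 8 or 12. The arrays of these groups also differed in median signal, at 142, 139 and 149 in coconut oil barrows, against 163, 174 and 162 in beef tallow barrows. With array medians centred, FABP4 differed by -1.23 in barrows and did not pass (limma adjusted p = 0.0596). The part of the array medians in these differences was not tested.

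In gilts no member passed, and none of the 14399 probe sets did (0%; 677 had an unadjusted p under 0.05). Differences were -0.74 ± 0.38 for FABP4, -1.25 ± 0.82 for ADIPOQ, -1.17 ± 0.56 for PPARG, -0.76 ± 0.50 for CIDEA, -0.44 ± 0.71 for LIPE and -1.22 ± 0.76 for RBP7, on the log2 scale. Here 1 member was apart, RBP7, where 11.6% of all probe sets were. Pig 2 was the low beef tallow gilt in 5 of these genes: it had 679 for ADIPOQ and 452 for LIPE, against 8944 and 3691 in pig 8. Without pig 2 the differences in gilts were -2.24 for ADIPOQ and -1.19 for FABP4, and without pig 8 they were -0.38 and -0.26. LIPE was -1.33 without pig 2 and 0.19 without pig 8.

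The coconut oil minus beef tallow difference was not shown to differ between the sexes. The barrow minus gilt difference of that contrast was -0.71 ± 0.53 for FABP4, -1.31 ± 1.15 for ADIPOQ and -1.24 ± 1.00 for LIPE, and for RBP7 it was 0.59 ± 1.07, each with an adjusted p of at least 0.882. No probe set passed that test (0%; 796 had an unadjusted p under 0.05).

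Soybean oil was set against coconut oil, sharing the coconut-fed pigs with the contrast above. No probe set passed (0%; 1875 had an unadjusted p under 0.05, 5 of them members). ADIPOQ differed by 1.76 ± 0.58, FABP4 by 0.96 ± 0.27, PPARG by 1.34 ± 0.40 and CIDEA by 1.11 ± 0.35, with limma adjusted p between 0.252 and 0.271. Differences were 1.02 ± 0.50 for LIPE, 1.00 ± 0.54 for RBP7, 0.43 ± 0.25 for LEP and -0.80 ± 0.28 for ADRB3. The soybean and coconut groups did not overlap for ADIPOQ, FABP4, PPARG and ADRB3, which is 4 of 8 members, and 1.06% of all tested probe sets were apart in this way. When the 12 pigs of these 2 fats were fitted alone, 5 members passed: ADIPOQ, FABP4, PPARG, CIDEA and LIPE, with adjusted p between 0.0269 and 0.0488, where 0.229% of all tested probe sets were called.

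Olive oil gave no call against either neighbour. Against coconut oil, ADIPOQ differed by 1.28 ± 0.58, FABP4 by 0.70 ± 0.27 and PPARG by 0.84 ± 0.40, while ADRB3 differed by -0.70 ± 0.28 (adjusted p at least 0.554; 0% of probe sets called, 1275 with an unadjusted p under 0.05). Against beef tallow, olive oil minus beef tallow differences lay between -1.02 (RBP7) and -0.03 (LEP), with 0% called and 928 probe sets with an unadjusted p under 0.05. Within olive oil, pigs 4 and 12 had ADIPOQ at 5813 and 11439, and the other 4 olive oil pigs lay between 825 and 1347. Gilt 7 lay below the 3 olive oil barrows for ADIPOQ and PPARG and among them for LIPE.

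Averaged over the sexes, soybean oil and beef tallow were the closest pair for most members. In 6 of 8 members this average joined opposite signs, such as -1.08 in barrows and 0.79 in gilts for ADIPOQ. For LIPE the values were -0.50 and 0.42. These differences between the sexes were not tested. Over both sexes, soybean oil minus beef tallow differences were -0.15 ± 0.58 for ADIPOQ, -0.13 ± 0.27 for FABP4, -0.06 ± 0.40 for PPARG, -0.03 ± 0.35 for CIDEA, -0.04 ± 0.50 for LIPE and 0.08 ± 0.54 for RBP7, with 0% of probe sets called and 498 with an unadjusted p under 0.05. The 95% interval for ADIPOQ, -1.35 to 1.06, still allows a difference of over 2-fold either way, whereas that for FABP4 was -0.68 to 0.42. ADRB3 differed by -0.61 ± 0.28, and by -0.31 without pig 19, its lowest pig (30.2). Without that pig soybean oil minus coconut oil was -0.51 for ADRB3. Soybean oil minus olive oil differences lay between -0.10 (ADRB3) and 1.09 (RBP7), with 0% called and 458 with an unadjusted p under 0.05. With signals below 86.3 set to that level, RBP7 differed by 0.0733 for soybean oil minus olive oil and by -5.47e-05 for olive oil minus beef tallow.

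Ranked by mean log2 level, PPARG, ADIPOQ, FABP4, CIDEA and LIPE all had beef tallow first, then soybean oil, olive oil and coconut oil. RBP7 and LEP had soybean oil first and beef tallow next, and ADRB3 had coconut oil first and beef tallow next. No neighbours in any of these orders differed by a test that passed. The F test over the 4 fats called no member and no probe set (0%; 1676 had an unadjusted p under 0.05, among them ADIPOQ, FABP4, PPARG, CIDEA and ADRB3).

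**Figure D3:**
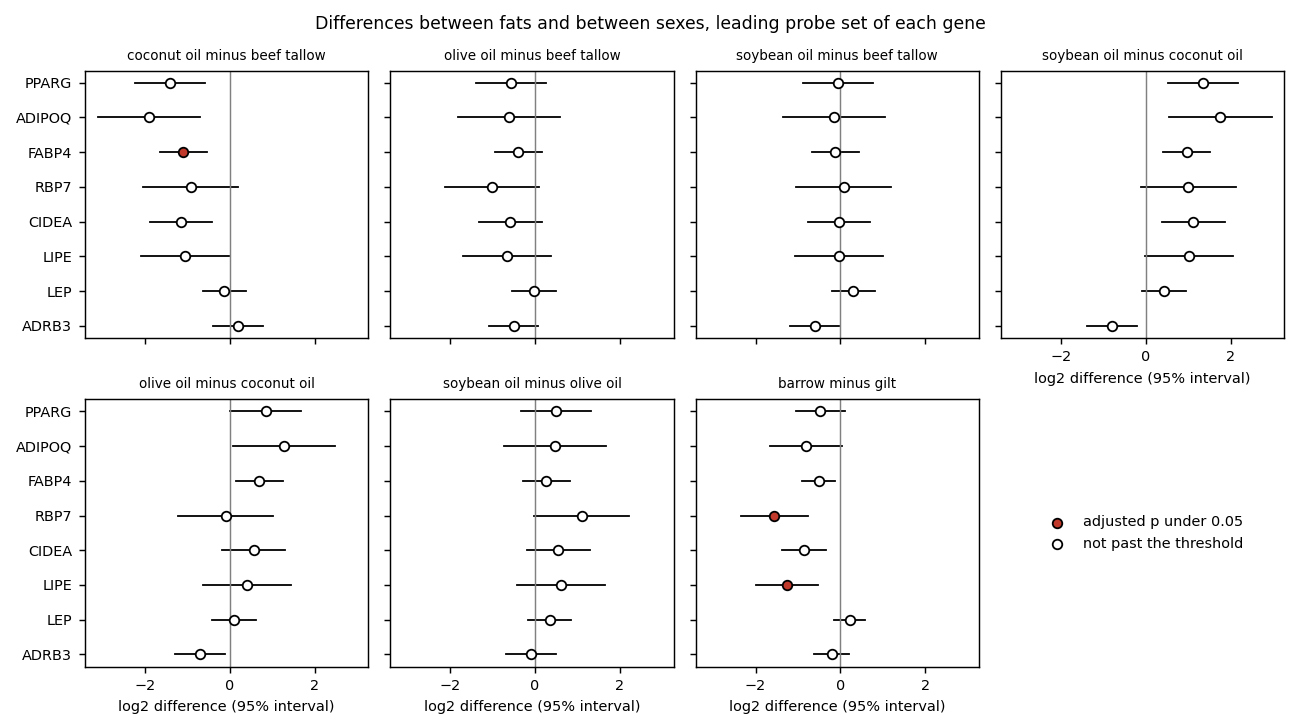
Log2 differences (horizontal axis) with 95% intervals for the leading probe set of each gene in 7 comparisons, filled where the limma adjusted p was under 0.05. FABP4 is filled for coconut oil minus beef tallow (-1.09), RBP7 (-1.56) and LIPE (-1.26) for barrow minus gilt, and no other point is.

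Between the sexes, RBP7 and LIPE were lower in barrows. RBP7 read 83.0, 95.7 and 95.7 in soybean oil barrows, against 218, 256 and 433 in soybean oil gilts. With olive oil it read 4.29, 45.0 and 49.0 in barrows, against 65.0, 417 and 605 in gilts. With beef tallow it read 82.0, 124 and 147 in barrows, against 150.0, 222 and 270.4 in gilts. Barrows and gilts did not overlap with these 3 fats. With coconut oil the order was lost, at 27.6, 90.9 and 158 in barrows, against 84.9, 89.1 and 92.8 in gilts.

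Averaged over the fats RBP7 fell by 1.56 ± 0.38 on the log2 scale in barrows (95% interval -2.35 to -0.77; adjusted p = 0.0228), and all 12 barrows lay below the gilt mean. The call held in all 24 runs that left out 1 pig, with adjusted p between 0.00353 and 0.0466. The call was lost with no filter (limma adjusted p = 0.0626) and without pigs 11, 12 and 16 (-1.51, adjusted p = 0.0721). With signals below 86.3 set to that level the difference was -0.97 (adjusted p = 0.0152). The log2 mean of barrows, 6.03, lay below the filter level of 6.45, and that of gilts, 7.59, lay above it. RBP7 thus reached the test only through its high group.

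LIPE read 908, 953 and 1286 in soybean oil barrows, against 1656, 1989 and 2624 in soybean oil gilts. With coconut oil it read 311, 499 and 609 in barrows, against 1056, 1136 and 1205 in gilts. These 2 fats kept the sexes apart, while with olive oil (257, 337 and 616 in barrows, against 593, 3544 and 6655 in gilts) and beef tallow (818, 1383 and 2767 in barrows, against 452, 2181 and 3691 in gilts) they overlapped. LIPE fell by 1.26 ± 0.35 in barrows (limma adjusted p = 0.0444), with 11 of 12 barrows below the gilt mean. The call was lost in 20 of 24 runs that left out 1 pig (it held without pig 2, 7, 21 or 22; adjusted p between 0.00461 and 0.0878) and without pigs 11, 12 and 16 (-0.98, adjusted p = 0.143).

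These were 2 calls among 8 members, where 4.77% of all tested probe sets were called and 2.51% were lower in barrows. As RBP7 reached the test only through the gilts, the count of 2 cannot be weighed against these shares. With no filter neither gene passed (limma adjusted p = 0.0626 for RBP7 and 0.104 for LIPE). CIDEA differed by -0.86 ± 0.25 (adjusted p = 0.0531), FABP4 by -0.51 ± 0.19 (adjusted p = 0.120), ADIPOQ by -0.80 ± 0.41 (adjusted p = 0.266) and PPARG by -0.47 ± 0.28 (adjusted p = 0.354). CIDEA passed with centred array medians, array weights, trended and robust spread or low signals raised to the filter (adjusted p between 0.0118 and 0.0485), and without pig 2, 7 or 22, and FABP4 passed without pig 2 or 7. LEP differed by 0.22 ± 0.17 and ADRB3 by -0.20 ± 0.20. The median over the members was -0.66, beside -0.02 over all tested probe sets, and here too the members do not count as separate observations.

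By fat, members whose barrows and gilts did not overlap numbered 4 with soybean oil (13.2% of all tested probe sets were apart), 2 with olive oil (17.2%), 3 with coconut oil (19%) and 1 with beef tallow (14%). With soybean oil these were ADIPOQ, FABP4, LIPE and RBP7, and with beef tallow RBP7 alone. With beef tallow the barrow minus gilt difference of ADIPOQ was 0.56, of FABP4 0.19 and of PPARG 0.20, whereas with olive oil they were -1.71, -1.25 and -1.23, as differences of 3-pig means. The interaction of fat and sex passed for no member and no probe set (0%; 895 had an unadjusted p under 0.05, RBP7 the 1 member among them).

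Pigs of the same fat and sex differed more in these genes than in most others. The within-group SD on the log2 scale was 1.12 for ADIPOQ, 1.03 for RBP7, 0.96 for LIPE, 0.76 for PPARG, 0.68 for CIDEA and 0.49 for FABP4, beside a median of 0.32 over all tested probe sets. ADIPOQ was thus at the 99.5th percentile of tested probe sets and FABP4 at the 84.0th. Of the sum of squares of PPARG, 38.3% lay between fats, 6.81% between sexes, 8.10% in their interaction and 46.8% within groups. RBP7 had the opposite balance, with 13.1% between fats and 31.4% between sexes, and LIPE had 13.8% and 27.8%. Medians over all tested probe sets were 13.1% between fats, 4.75% between sexes and 63.0% within groups.

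**Figure D4:**
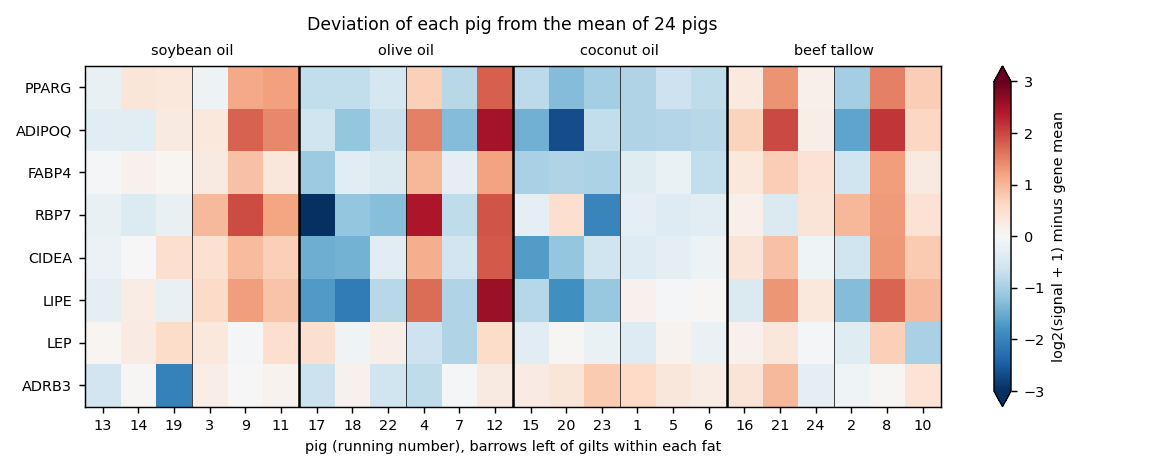
Deviation of each pig (columns, grouped by fat, barrows left of gilts) from the 24-pig mean of log2(signal + 1) for the leading probe set of each gene (rows), red above and blue below, with colours saturating at 3 log2 units. Pigs 12, 8, 9 and 4 are red and pigs 15, 17, 18 and 20 blue across most of the first 6 rows. LEP follows these rows weakly at most (r = 0.39 with ADIPOQ over 24 pigs), and ADRB3 does not (r = -0.01).

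The fat cell genes moved together from pig to pig. Over 24 pigs the 15 pairs among PPARG, ADIPOQ, FABP4, RBP7, CIDEA and LIPE had Pearson r between 0.50 and 0.96 (median 0.88) and Spearman rho between 0.47 and 0.94. All 15 had a permutation p that passed after adjustment over the 28 pairs of the 8 genes (Pearson adjusted p at most 0.0230, Spearman at most 0.0361), from 100000 permutations with a smallest p of 1e-05. The permutations shuffled all 24 pigs without regard to fat and sex, so shared group differences can add to these results. With group means removed, r of the 15 pairs lay between 0.19 and 0.94, and these values were not tested. The tightest pair was ADIPOQ and PPARG, at r = 0.96 (rho 0.94; permutation p = 1e-05; adjusted p = 2.8e-05), 0.94 without pigs 8 and 12, which lay farthest out, 0.92 in barrows and 0.98 in gilts. With the means of the 8 groups of fat and sex removed it was still 0.94.

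RBP7 followed this block less closely among barrows than among gilts. Its r with ADIPOQ was 0.06 in the 12 barrows and 0.80 in the 12 gilts (0.50 over all 24; rho 0.50; permutation p = 0.0123; adjusted p = 0.0230), and 0.19 with group means removed. Its r with PPARG was 0.31 in barrows and 0.75 in gilts. With FABP4 it was 0.53 in barrows and 0.80 in gilts, and 0.57 with group means removed. Values in barrows and gilts were 0.42 and 0.71 with LIPE, and 0.41 and 0.79 with CIDEA. The difference between the sexes in these correlations was not tested, and 6 of the 12 barrows had RBP7 below the filter signal, against 2 of the 12 gilts. The 13 pairs with LEP or ADRB3 had r between -0.19 and 0.40, and none passed (Pearson adjusted p at least 0.0971). By rank, LEP with PPARG (rho 0.54; permutation p = 0.00719; adjusted p = 0.0144) and LEP with ADIPOQ (rho 0.52; permutation p = 0.0109; adjusted p = 0.0203) did pass, with Pearson r of 0.40 and 0.39, which were 0.22 and 0.21 without pigs 8 and 12. With group means removed these were 0.56 and 0.55, and r of LEP was 0.54 with CIDEA, 0.48 with FABP4 and 0.47 with LIPE. All of these LEP values rest on the leading probe set, which had r of only 0.07, 0.08 and 0.20 with the other LEP probe sets.

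**Figure D5:**
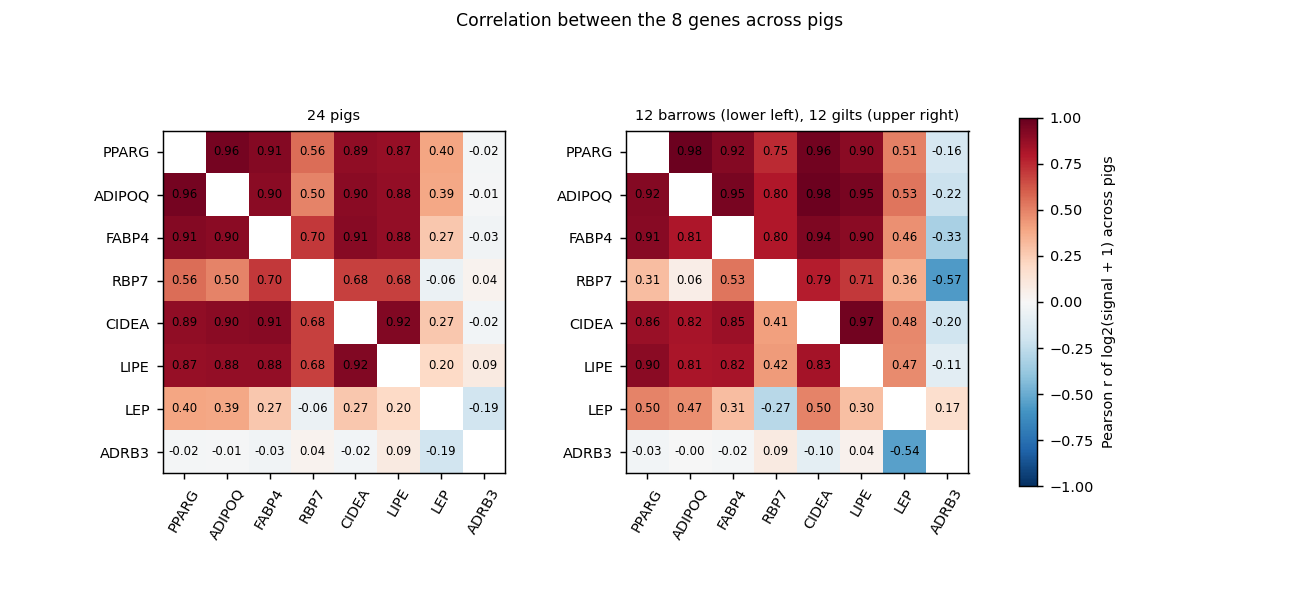
Pearson r between the leading probe sets of the 8 genes across 24 pigs (left) and, on the right, across 12 barrows in the lower left triangle and 12 gilts in the upper right. The block of PPARG, ADIPOQ, FABP4, CIDEA and LIPE is dark red throughout, and LEP and ADRB3 are pale on the left. RBP7 is paler in barrows (0.06 with ADIPOQ, 0.53 with FABP4) than in gilts (0.80 with each).

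Genes outside the list whose pattern was most like the mean of the 8 members over the 24 pigs were PC (r = 0.96), FAM213A (0.96), PTGR1 (0.95), RETSAT (0.93), ORMDL3 (0.93), FAM149A (0.93), LIPA (0.92), SGK2 (0.90), ACAA1 (0.90) and KRCC1 (0.89). PC is pyruvate carboxylase, RETSAT is retinol saturase, LIPA is lysosomal acid lipase and ACAA1 is a peroxisomal thiolase. The median r over all tested probe sets was 0.06, and 1.37% exceeded 0.8. With group means removed the 10 kept r between 0.81 and 0.95. For single members the closest genes were PC, PTGR1 and APOE for ADIPOQ, FAM213A, PC and FAM149A for PPARG, FAM213A, FAM149A and LIPA for FABP4, PC, FAM213A and PTGR1 for CIDEA, and RETSAT, ORMDL3 and PC for LIPE. RBP7 had a different set, LXN (0.84), RCBTB2 (0.83) and MDK (0.82). LEP (DCTN6, 0.77) and ADRB3 (a locus without a name, 0.68) had weaker nearest neighbours.

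Other genes of fat storage were read from 8 further lists, each gene by its leading probe set. The lists were chosen with earlier results of these data known. Of all tested probe sets, 1.12% were called for coconut oil minus beef tallow, and 2.07% within barrows. For coconut oil minus beef tallow, 1 gene of these lists passed: C1QTNF3, a secreted relative of adiponectin, fell by 1.48 ± 0.27 (limma adjusted p = 0.0302), 1 of 8 tested genes among other secreted products of fat cells, and by 2.38 ± 0.38 within barrows (adjusted p = 0.0244). In that list APOE, an apolipoprotein that fat cells also make, differed by -2.19 ± 0.61 (adjusted p = 0.0694), and the list median was -0.87, beside -0.04 over all probe sets. None of 12 genes of triglyceride and fatty acid synthesis passed (8 negative, median -0.37), where fatty acid synthase FASN differed by -2.02 ± 0.58 and the acyltransferase DGAT2 by -2.07 ± 0.58 (adjusted p = 0.0725 and 0.0694). None of 7 droplet coat and assembly genes passed (median -0.11), with CAV2 at -0.37 ± 0.15 and BSCL2, the droplet assembly protein seipin, at -0.33 ± 0.16. Among 5 genes of lipolysis and its control, none passed, with LIPA at -1.09 ± 0.30 (adjusted p = 0.0682) and MGLL, monoglyceride lipase, at -0.10 ± 0.13.

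The remaining lists, like some of those above, held genes that muscle fibres also express. None of 7 fat cell transcription factors passed for this contrast (median 0.09), with KLF15 at 0.75 ± 0.20 (adjusted p = 0.0639) and STAT5B at 0.46 ± 0.15. None of 8 genes of fatty acid uptake passed (median -0.08), with ACSL1 at 0.45 ± 0.20 and VLDLR at 0.36 ± 0.14. Neither 3 hormone receptor and insulin genes (SLC2A4, the insulin-regulated glucose transporter, 0.47 ± 0.25; ADIPOR1, an adiponectin receptor, 0.18 ± 0.13) nor 3 beige and brown fat genes (PPARGC1A, a coactivator of mitochondrial genes, 1.55 ± 0.44, adjusted p = 0.0708; COX7A1 0.18 ± 0.30) held a gene that passed.

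Between barrows and gilts the storage genes went both ways. Of all 14399 probe sets tested, 4.77% were called between the sexes, 326 as higher and 361 as lower in barrows. Of 12 synthesis genes 4 rose and 1 fell in barrows: SCD by 2.11 ± 0.56, FASN by 1.61 ± 0.41, GPD1 by 0.65 ± 0.12 and ME1 by 0.64 ± 0.16 rose, and GPAM fell by 0.70 ± 0.15. SCD makes monounsaturated fatty acids, FASN makes palmitate and ME1 supplies the reducing power for it. PNPLA2, which starts triglyceride breakdown, fell by 0.93 ± 0.15 (adjusted p = 0.00170; 1 of 5 lipolysis genes), and of 8 uptake genes 4 fell. These were FABP3, the fatty acid carrier of muscle (0.96 ± 0.19), LPL, the lipase of capillaries (0.59 ± 0.14), its anchor GPIHBP1 (0.80 ± 0.13) and its inhibitor ANGPTL4 (1.09 ± 0.27), as falls on the log2 scale. Of 7 droplet coat genes, PLIN3 fell by 0.78 ± 0.12 (adjusted p = 0.00139). None of the transcription factor, secreted product, receptor or beige fat genes passed between the sexes.

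Among markers of other cells, only those of fibroblasts and preadipocytes held calls between coconut oil and beef tallow. Of 12 tested fibroblast and preadipocyte markers 6 fell with coconut oil (DCN, FBN1, THY1, COL1A2, FAP and POSTN; median over the list -0.83), and their summed signal lay between 30153 and 41228 with coconut oil, against 38144 to 89748 with beef tallow. In barrows 7 of the 12 fell. Of all tested probe sets, 0.861% were called as lower with coconut oil over both sexes, and 2.07% were called in barrows. The marker lists were chosen with earlier results of these data known, so these counts are not independent of those results. Over the 24 pigs the 12 fibroblast and preadipocyte markers had r with ADIPOQ between 0.14 and 0.76 (median 0.59). For the muscle fibre markers r lay between -0.43 and 0.01. These r include the differences between the fats. With group means removed the median r was 0.33 for fibroblast and preadipocyte markers and 0.09 for endothelial ones. It was 0.30 for leukocyte and -0.23 for muscle fibre markers. None of 11 endothelial markers passed (median -0.23; summed signal 7866 to 11522 with coconut oil, against 7515 to 12689 with beef tallow), and none of 9 leukocyte markers did (median -0.44; 5346 to 11615 with coconut oil, against 7154 to 12644 with beef tallow). The 13 muscle fibre markers had a median of 0.02. Between barrows and gilts, no marker of these 4 cell classes passed, and medians were -0.10 for fibroblasts and preadipocytes, -0.10 for endothelium, 0.09 for leukocytes and -0.05 for muscle fibres. The part of these cells in the results for the fat cell genes was not tested.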

How the data were processed

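The authors deposited 1 intensity on a linear scale per probe set and pig, from 1-colour Affymetrix arrays. Per the labels' protocols, total RNA of powdered muscle was amplified from the 3' end in 1 cycle and labelled with biotin. The summarisation and scaling are not given in the sources used here; on the values, the mean after trimming 2% at each end was between 500.1 and 500.2 on every array, so signals are relative to each array's total.

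Signals were turned into log2(signal + 1). Leaving aside 124 controls, 23999 probe sets remained, and the 14399 whose mean log2 value reached their 40th percentile, which is a signal of 86.3, were tested. A fold change on this scale understates the change of low signals. Means of the 8 combinations of fat and sex were fitted over all 24 arrays with lmFit and eBayes of limma 3.58.1 (R 4.3.3), which left 16 residual degrees of freedom. Tests were two-sided, and a probe set passed at an adjusted p under 0.05 (Benjamini-Hochberg, over all those tested). It was tested on simulated data first. Precision is limited by the number of pigs, as arrays have no counts. Where a gene had several probe sets, that with the highest mean led. Correlations used permutation tests. The members and lists were chosen with earlier results of these data known. Named genes were the members, the 10 genes most like their mean and the 3 most like each, and, from the lists, those past the threshold and the 2 with the smallest p for coconut oil minus beef tallow. Symbols came from the array annotation. No sequence or coordinate is given, since no genome was used. Alternatives were array weights, an additive model, trended and robust spread, quantile normalization, centred array medians, no filter or one at the 60th percentile, a pseudocount of 16, leaving out pigs 11, 12 and 16, fitting the compared fats alone, and leaving out each pig; setting signals below the filter to it, and filtering on the mean signal, as the design had been worded, in place of the mean log2 value, were chosen after seeing the data.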

Additional observations from a re-analysis of the deposited data

Results flagged for a closer look

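Among 48 groups of 6 pigs (12 probe sets by 4 fats), 6 held a pig far from the other 5. The measure was the ratio of its gap from the nearest pig to the range of the group, both taken on log2(signal + 1). The values given beside the ratios are signals. Chance flags about 1 in 20 groups. With coconut oil, pig 20 was low for ADIPOQ (324, against 746 to 1221; ratio 0.628) and pig 23 for RBP7 (27.6, against 84.9 to 158; ratio 0.640). With soybean oil, pig 19 was low for the leading ADRB3 probe set (30.2, against 84.1 to 146; ratio 0.647). The others were LEP probe sets with weak or control-type signals: pig 11 with soybean oil (55.4, against 133 to 182; ratio 0.736), pig 22 with olive oil (23.2, against 97.3 to 222; ratio 0.632) and pig 12 with olive oil (155, against 3.06 to 10.3; ratio 0.721). Pig 12 also had the highest ADIPOQ, PPARG, CIDEA and LIPE of the series and the lowest mean correlation with the other arrays.

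For soybean oil minus beef tallow, the means differed in opposite directions in barrows and gilts in 6 of 8 members (ADIPOQ by -1.08 and 0.79, FABP4, PPARG, CIDEA, LIPE and RBP7). In LIPE and RBP7 each of the 3 soybean oil barrows also lay below the beef tallow barrow mean, and each of the 3 soybean oil gilts above the beef tallow gilt mean. LIPE differed by -0.50 in barrows and 0.42 in gilts (-0.91 between them), and RBP7 by -0.32 in barrows and 0.47 in gilts (-0.79 between them). These differences between the sexes were not tested.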

How the results depend on the processing

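No paired analysis was possible because the running numbers of the pigs are unique and pair no samples. In all 12 alternatives beside leaving out single pigs, ADIPOQ, FABP4, PPARG, CIDEA, LIPE and RBP7 stayed negative for coconut oil minus beef tallow wherever they were tested, and in those that could be run all 6 stayed negative for barrow minus gilt. The filter on mean signals changed no call of a member (FABP4 adjusted p = 0.0479). Calls were less settled. Of the 8 members, coconut oil minus beef tallow called 1, but 0 with no filter (FABP4 adjusted p = 0.107), quantile normalization (0.0722), centred array medians (0.0554), the additive model (0.0821) or without pigs 11, 12 and 16 (0.0510), and 4 with array weights (ADIPOQ, FABP4, PPARG and CIDEA). In barrows the count was 0 with no filter, quantile normalization, centred medians or without those 3 pigs, and 2 with array weights. Barrow minus gilt called 2, but 0 with no filter or without those 3 pigs, and 1 with the filter at the 60th percentile (which drops RBP7) or the additive model, and 3, CIDEA added, with centred medians, array weights, trended and robust spread or low signals raised. Soybean oil minus coconut oil called 5 when fitted alone (33 of all probe sets), and the F test over the fats called 1 with array weights (68 of all). Leaving out 1 pig gave 0 to 4 calls for coconut oil minus beef tallow, 0 to 3 in barrows and 1 to 4 between the sexes.

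Over all tested probe sets, 161 were called for coconut oil minus beef tallow (124 lower), 6 with no filter, 279 with the filter at the 60th percentile, 51 with quantile normalization (36 lower), 165 with centred medians (63 lower), 0 with the additive model, 1264 with array weights, 260 without the 3 pigs, 246 with low signals raised to the filter (198 lower) and 313 fitted alone. Between the sexes 687 were called (361 lower in barrows), 679 with quantile normalization (305 lower), 692 with centred medians (260 lower), 302 with no filter, 416 without the 3 pigs and 1530 with array weights. In barrows 298 were called, 0 with no filter, 88 with quantile normalization, 393 with centred medians, 619 with array weights and 3 without the 3 pigs. Centring moved the median of all probe sets to 0.09 for coconut oil minus beef tallow, against -0.04 as deposited, and FABP4 then differed by -0.96. The cause of these changes was not tested.

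Signs turned only in small differences that never passed. They were LEP olive oil minus beef tallow (0.0698 with quantile normalization, 0.0568 with centred medians), CIDEA soybean oil minus beef tallow (0.00211 with centred medians), LEP olive oil minus coconut oil (-0.0238 with array weights, -0.12 without the 3 pigs), RBP7 olive oil minus coconut oil (0.15 with a pseudocount of 16, 0.23 with array weights, 0.66 with low signals raised) and ADRB3 soybean oil minus olive oil (0.16, 0.00673 and 0.0922 with array weights, without the 3 pigs and with low signals raised). Leaving out 1 pig, soybean oil minus beef tallow ranged from -0.64 to 0.29 for ADIPOQ, -0.31 to 0.17 for CIDEA, -0.36 to 0.11 for FABP4, -0.48 to 0.27 for LIPE, -0.42 to 0.21 for PPARG and -0.0691 to 0.18 for RBP7. Other ranges across 0 were -0.0730 to 0.87 (ADIPOQ) and -0.33 to 0.19 (ADRB3) for soybean oil minus olive oil, -0.32 to 0.10 for LEP coconut oil minus beef tallow, -0.25 to 0.20 for LEP olive oil minus beef tallow, -0.12 to 0.24 (LEP) and -0.44 to 0.43 (RBP7) for olive oil minus coconut oil, -1.33 to 0.19 for LIPE coconut oil minus beef tallow in gilts, -1.17 to 0.0703 for RBP7 in barrows, and -1.02 to 0.24 for the difference of PPARG between the sexes.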
